A study of Homo sapiens with 20 samples.

Results

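The genes described here encode the proteins of the cytoplasmic ribosome. They were chosen as the protein-coding genes whose symbols have the form of a ribosomal protein name (RPL or RPS with a number and, for some, a closing letter) or are RPLP0, RPLP1, RPLP2 or RPSA. Pseudogenes, the RPS6K kinases, gene copies that carry an L after the full name and copies on the Y chromosome were left out. The choice gave 76 of 35168 genes in the table, of which 19802 are protein-coding. Of the 76 genes, 42 belong to the large subunit, 3 to its stalk and 31 to the small subunit. RPL7A, whose symbol has the stated form, is not among them, so the set is not the complete family.

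A ribosome holds a small subunit, which reads the mRNA, and a large subunit, which joins amino acids, and each protein is normally present once per ribosome except for the stalk proteins RPLP1 and RPLP2. Cells make ribosomal proteins in matched amounts, and their mRNAs are among the most abundant of growing cells. Most of these mRNAs begin with a terminal oligopyrimidine (TOP) tract, a C followed by a run of C and T, through which the kinase mTOR and the RNA-binding protein LARP1 control their translation and stability. Some ribosomal proteins also act outside the ribosome. RPL5 and RPL11 bind MDM2, the ubiquitin ligase of p53, RPL13A is part of the GAIT complex that silences inflammatory mRNAs after interferon gamma, and RPS3 is a subunit of some NF-kB complexes.

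RNA of 5 established human lines was sequenced. THP-1, NOMO-1 and Kasumi-1 derive from patients with acute myeloid leukemia (AML), a cancer of blood-forming cells. TIME and iHUVEC are endothelial, that is, derived from the cells lining blood vessels. Each line gave 4 libraries: with interferon gamma and tumor necrosis factor alpha together (IFNg+TNFa), with IFNg alone, with TNFa alone, and untreated. Each cytokine was used at 10 ng/ml for 24 h. Each treatment therefore had 3 AML and 2 endothelial libraries. The lines served as replicates and none was repeated, so spread between cultures of one line was not measured. Cell numbers and RNA per cell are not in these values: fewer ribosomal transcripts per cell and more of other transcripts cannot be told apart.

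The deposited values are TPM, shares of a library's transcripts corrected for transcript length, which keep no sequencing depth. The 13 MT- genes of the mitochondrial genome took 73.2 to 82.1% of all TPM in NOMO-1, where 4 libraries were made, and 11.9 to 24.8% in the other 16 libraries, so each library was rescaled to the same sum without them. A level below is such a rescaled TPM. In NOMO-1 another 9.71 to 22.3% of the rescaled TPM fell on MTRNR2L genes, nuclear copies of mitochondrial ribosomal RNA sequence, against 0.355 to 1.03% elsewhere. The lines carried the markers of their labels. The summed level of 8 hematopoietic markers was 1003 to 3334 in AML libraries and 34.9 to 146 in endothelial libraries, where CD33, MYB, PTPRC and SPI1 stayed under 1. That of 8 endothelial markers was 5.60 to 37.5 in AML libraries, where CDH5, EMCN, KDR and TEK stayed under 1, and 948 to 2612 in endothelial libraries. With both cytokines, all 6 IFNg response genes and all 6 TNF response genes examined rose in each cell type.

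The 5′ ends of the members are shown first, since the TOP tract is what these genes share in sequence. RefSeq starts on GRCh38.p14 were at hand for 61 of the 76 members. In 45 of these 61 (73.8%) an annotated start was a C followed directly by at least 4 C or T, on the gene's own strand. The same held for 918 of 15186 other protein-coding genes of the table with a start (6.0%). The windows below run 5′ to 3′ over 40 bases before the start and the first 20 bases of the transcript, with the tract in capitals. RPS6, RPS3A, RPLP0, RPL21, RPL13A and RPS24 are shown because they fell among the most with both cytokines, and RPL28, RPS16 and RPS29 because they changed little in one or both cell types.
RPS6 (chr9:19380217-19380276, minus strand): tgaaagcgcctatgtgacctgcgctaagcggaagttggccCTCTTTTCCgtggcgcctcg
RPS3A (chr4:151099588-151099647, plus strand): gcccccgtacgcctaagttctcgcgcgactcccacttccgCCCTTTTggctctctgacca
RPLP0 (chr12:120201092-120201151, minus strand): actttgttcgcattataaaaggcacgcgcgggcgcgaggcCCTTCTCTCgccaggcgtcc
RPL21 (chr13:27251518-27251577, plus strand): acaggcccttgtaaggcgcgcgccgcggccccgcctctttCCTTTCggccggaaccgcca
RPL13A (chr19:49487568-49487627, plus strand): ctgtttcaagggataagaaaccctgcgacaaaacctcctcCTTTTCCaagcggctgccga
RPS24 (chr10:78033823-78033882, plus strand): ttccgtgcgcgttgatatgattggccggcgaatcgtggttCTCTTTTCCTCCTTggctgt
RPL28 (chr19:55385892-55385951, plus strand): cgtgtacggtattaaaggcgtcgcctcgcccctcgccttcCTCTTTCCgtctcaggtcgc
RPS16 (chr19:39435930-39435989, minus strand): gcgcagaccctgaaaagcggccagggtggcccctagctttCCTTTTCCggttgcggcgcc
RPS29 (chr14:49598691-49598750, minus strand): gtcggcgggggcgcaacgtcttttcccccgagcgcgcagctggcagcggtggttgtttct
The tract was 9 bases long in RPS6 and RPLP0, 8 in RPL28 and RPS16 and 14 in RPS24. The annotated start of RPS29 held none. Members that changed much and members that changed little thus both held a tract at their start. With both cytokines, the median log2 change was -0.94 in AML lines and -0.71 in endothelial lines for the 45 members with a tract. It was -0.89 and -0.73 for the 16 without one at the exact annotated start. In some of the 16, such as RPL4, RPL9 and RPL19, a run of C and T lay a few bases from that start. The 16 are thus not shown to lack a tract, and these medians do not compare mRNAs with and without one.

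With MT- genes set aside, the family took up a large part of each transcriptome. Its summed level was 35.9% of the rescaled TPM in untreated Kasumi-1 cells, 15.1% in NOMO-1, 29.4% in THP-1, 17.0% in iHUVEC and 17.0% in TIME. Of the deposited TPM, MT- genes included, it held 3.62% in untreated NOMO-1 and 13.9 to 30.3% in the other untreated lines. Between 53 and 70 of the 76 members stood among the 100 genes with the highest level of an untreated library. Within the family, the mean level over all 20 libraries ran from 715 to 5812. RPLP2, a stalk protein that helps recruit elongation factors, was highest at 5812, followed by RPL41, the shortest of these proteins, at 5776, and RPS18 at 5361. The lowest mean levels were 715 for RPS9, 720 for RPS26, a protein at the mRNA exit channel, and 744 for RPL9. TPM is corrected for length, so these levels can be set beside each other, but reads can also be shared between a gene and its copies.

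**Figure D1:**
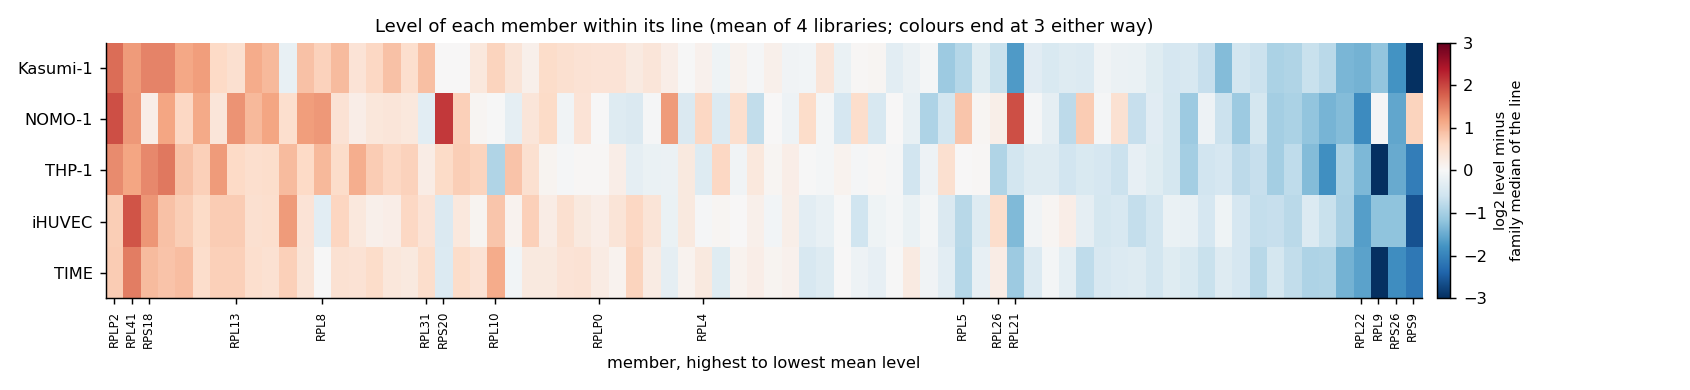
The heat map shows the log2 level of each of the 76 members minus the family median of the same line (colour scale, mean of 4 libraries per line), with lines down the page and members ordered from the highest mean level at the left. Members with the highest, lowest, most or least variable levels and a few others are labelled. RPL9 is dark blue in THP-1 and TIME, and RPL21 and RPS20 are dark red in NOMO-1 alone.

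Members kept a similar rank in most lines but not in NOMO-1. Across the 76 members, the line means of log2 levels correlated at r = 0.69 to 0.85 between pairs of the other 4 lines and at r = 0.34 to 0.47 between NOMO-1 and each of them, as a description over genes that share their libraries. In NOMO-1, RPS20 lay 2.12 log2 units above the family median of the line, against 0.58 in THP-1, 0.01 in Kasumi-1, -0.41 in TIME and -0.43 in iHUVEC. RPL21 lay 1.92 above it in NOMO-1 and between 0.54 and 1.70 below it in the other lines. RPS20 belongs to the small and RPL21 to the large subunit, so members of both subunits stood high in this line.

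RPL9, of the large subunit, varied most between lines, by 4.08 log2 units. The mean level of its libraries was 1505 for Kasumi-1, 1282 for NOMO-1 and 749 for iHUVEC, against 105 in THP-1 and 79.4 in TIME. All 4 libraries of THP-1 and TIME had low values, from 67.3 to 118, and those of the other 3 lines had 478 to 2731. In THP-1 and TIME, pseudogene copies held 7.18 and 7.7% of the summed level of RPL9 and its copies, against 0.679 to 0.974% in the other lines. Retained-intron transcripts held 48.2 and 61.8% of RPL9 in THP-1 and TIME, against 2.77 to 3.17% elsewhere, and the part of either in the low level was not tested. RPS18, on chromosome 6 near the MHC genes, had a range of 2.80 and RPL31 one of 2.73, both with their lowest mean in NOMO-1 (1308 and 877) and their highest in Kasumi-1 (9468 and 6090). The narrowest ranges were those of RPL13 at 0.76, RPL4 at 1.00 and RPL26 at 1.01. For a member, the line accounted for 32.1 to 94.2% of the sum of squares of its 20 log2 levels (median 74.3%) and the treatment for 2.34 to 50.7% (median 19.0%).

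Several values are uncertain because near-identical pseudogenes have TPM of their own, and how reads were shared between a gene and its copies was not tested. RPL23AP42, a copy of RPL23A, had a mean level of 2029 against 971 for RPL23A itself, and all copies together held 68.2% of the summed level of RPL23A and its copies. The share of the copies was 22.2% for RPL22, 21.8% for RPL36A, 15.9% for RPS28 and 10.4% for RPL21. For RPL21 it was 0.492% in NOMO-1 and 16.5 to 19.4% in the other lines. With the copies added to their members, 68 members were called lower with both cytokines in AML lines and 19 in endothelial lines, against 68 and 17 without them. Of all genes in the fit without copies added, 20% were lower in AML lines and 10.2% in endothelial lines.

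In every line the family held the smallest share of the transcriptome with both cytokines. The summed level in Kasumi-1 was 13.7% of rescaled TPM with IFNg+TNFa, 30.7% with IFNg, 33.9% with TNFa and 35.9% untreated. NOMO-1 had 6.90% with IFNg+TNFa, 11.0% with IFNg, 10.3% with TNFa and 15.1% untreated. In THP-1, which changed least, the values were 22.9%, 27.3% and 25.6% in the same order of treatments, and 29.4% untreated. All treated libraries of the AML lines thus lay below the untreated library of their line.

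The endothelial lines showed the same order for the combined treatment. iHUVEC had 11.8% with IFNg+TNFa, 15.2% with IFNg, 13.8% with TNFa and 17.0% untreated. TIME had 8.83% with IFNg+TNFa, 14.5% with IFNg, 15.9% with TNFa and 17.0% untreated. The share with both cytokines was 0.381 of the untreated share in Kasumi-1, 0.458 in NOMO-1, 0.518 in TIME, 0.697 in iHUVEC and 0.779 in THP-1. The mean difference was -12.3 ± 8.63 percentage points in AML lines (SD, n = 3) and -6.68 ± 2.17 in endothelial lines (SD, n = 2), so the lines of one type differed widely. Without MTRNR2L genes the NOMO-1 values were 8.87% with both cytokines and 16.8% untreated.

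**Figure D2:**
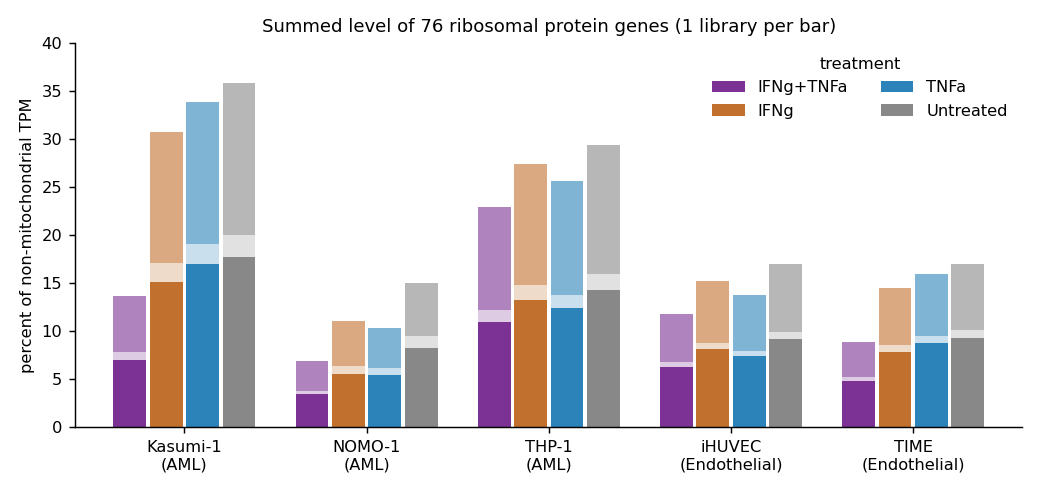
Each bar is 1 library and shows the percent of non-mitochondrial TPM held by the 76 members, split from bottom to top into large subunit (full colour), stalk (palest) and small subunit (mid tone), for 4 treatments in 5 lines. The IFNg+TNFa bar is the lowest of each line, from 6.90% in NOMO-1 to 22.9% in THP-1.

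Inflammatory and other abundant transcripts held more of the total with both cytokines. With both cytokines, CXCL10, a chemokine induced by interferon gamma, held 1.92% of rescaled TPM in Kasumi-1, 1.75% in iHUVEC and 1.31% in TIME, against 0.000% in each of these lines untreated. FTL, the ferritin light chain, held 3.82% in THP-1 with both cytokines and 0.668% untreated. In NOMO-1 the largest gain was that of MTRNR2L12, with 18.3% with both cytokines and 8.52% untreated. These genes were picked for their gain, and values of all genes in a library sum to a fixed total.

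Treatments were compared with untreated cells in 1 limma fit of log2(level + 1) over all 20 libraries, with a term for the line, with Benjamini-Hochberg adjustment over all 15941 genes tested. Genes with an adjusted p below 0.05 are called. All 76 members passed the filter on low levels. With both cytokines in AML lines, 68 of 76 members fell (89.5%) and none rose. Of all genes tested, 20% fell and 9.65% rose. The median log2 change was -0.95 for members and -0.18 for all genes, and the log2 change of every member was negative, from -2.06 to -0.13. By subunit, 40 of 42 large subunit members, 3 of 3 stalk members and 25 of 31 small subunit members fell. The calls leaned on Kasumi-1 and NOMO-1: 36 members were called without Kasumi-1, where 20.1% of all genes were lower, and 29 without NOMO-1, where 13.3% were, each member lower, and 25 of the 68 were called whichever line was left out. Without the term that pairs libraries of a line (no replicate block), 1 member was called in AML and 0 in endothelial lines. With median-of-ratios scaling, which moved the median of all genes to -0.02, 30 members were called lower with a member median of -0.69, while calls over all genes turned from 3184 lower and 1539 higher to 2230 lower and 2325 higher.

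Line by line, members were lower with both cytokines by a median log2 change of -1.48 in Kasumi-1, where 76 of 76 were lower than untreated, and -1.01 in NOMO-1, where 75 were. THP-1 had a median of -0.36 with 72 lower. The medians over all genes of these lines were 0.00, -0.37 and -0.19. Endothelial lines had medians of -0.50 with 75 lower in iHUVEC and -0.95 with 76 lower in TIME, and all genes had -0.26 in each of them. In all, 70 members were lower in 5 of 5 lines and the other 6 in 4 of 5. These per-line values have no replicate and no test.

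**Figure D3:**
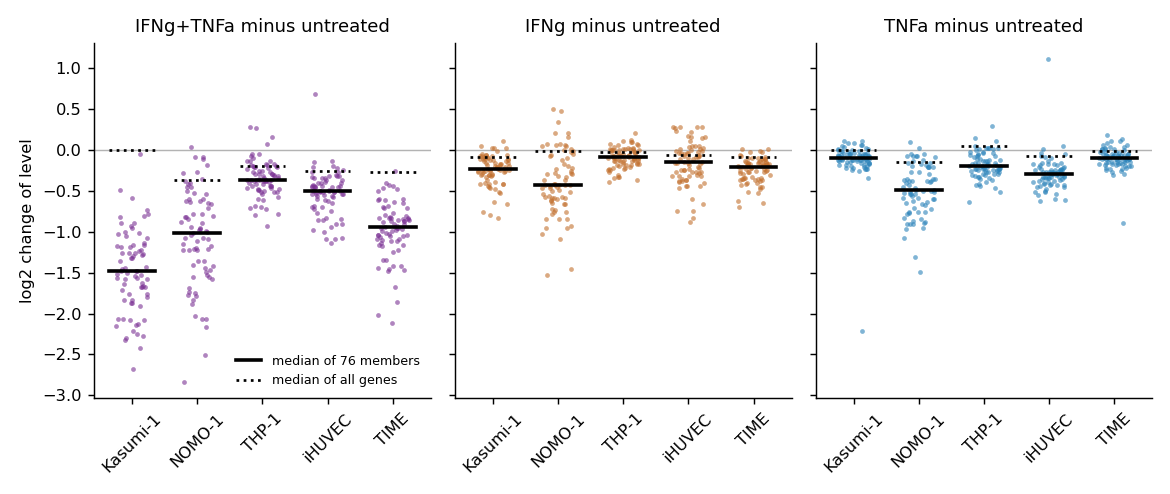
Each point is 1 of 76 members in 1 line, on a log2 scale of treated minus untreated level, for 3 treatments. Solid bars are medians of the members and dotted bars medians of all genes with a mean level of at least 1. With both cytokines the member medians lie between -0.36 in THP-1 and -1.48 in Kasumi-1, and single cytokines leave them between -0.09 and -0.49.

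The largest fall in AML lines was that of RPL5, which carries 5S ribosomal RNA into the large subunit. Its level was 556 (Kasumi-1), 713 (NOMO-1) and 2156 (THP-1) with both cytokines, against 2977, 5117 and 4119 in these lines untreated. The groups did not overlap, and the log2 change was -2.06 ± 0.32 (limma, adjusted p = 0.000881). Much of the RPL5 signal in NOMO-1 was assigned to RPL5-207, a transcript annotated with a retained intron, which held 79.9% of the gene there, 28.6% in THP-1, 3.88% in Kasumi-1 and 1.61 to 1.64% in the endothelial lines. With transcripts annotated as non-coding left out, the change of RPL5 was -1.36 (adjusted p = 0.00575).

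RPS3A and RPS6 of the small subunit followed. RPS3A, at the platform of the small subunit, had levels of 801 (Kasumi-1), 725 (NOMO-1) and 2340 (THP-1) with both cytokines, and 5118, 3258 and 3853 in these lines untreated. Every treated value lay below every untreated one, and the change was -1.85 ± 0.35 (limma, adjusted p = 0.00234). RPS6, the substrate of the S6 kinases, had 492 (Kasumi-1), 353 (NOMO-1) and 3310 (THP-1) with both cytokines, against 2458, 1487 and 5325 untreated. THP-1 stood high in both groups, so that they overlapped although each line was lower, by -1.69 ± 0.30 in the fit (adjusted p = 0.00189).

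RPL21 and RPL36A of the large subunit and RPS24 had the smallest p-values after RPL5. RPL21 had levels of 386 (Kasumi-1), 1918 (NOMO-1) and 1655 (THP-1) with both cytokines and 1383, 7806 and 2495 untreated, a change of -1.48 ± 0.26 (limma, adjusted p = 0.00158). RPL36A had 1830, 445 and 2639 with both cytokines in the same order of lines and 5340, 1324 and 4589 untreated, a change of -1.30 ± 0.23 (adjusted p = 0.00169). In both genes each line was lower while the lines differed so much that the groups overlapped. RPS24, mutated in Diamond-Blackfan anemia, had 3339, 1209 and 4103 with both cytokines and 9938, 4458 and 6638 untreated. Its groups did not overlap and its change was -1.38 ± 0.24 (adjusted p = 0.00174).

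RPL8, RPL34 and RPL13 were also among the members with the smallest adjusted p in AML lines, with log2 changes of -1.31 ± 0.24, -1.17 ± 0.21 and -1.33 ± 0.25 and adjusted p from 0.00193 to 0.00242. RPL8, at the peptidyl transferase center, moved to -0.76 (adjusted p = 0.0435) with non-coding transcripts left out, since 69.9% of it in NOMO-1 was RPL8-208, a processed transcript. RPL8, RPL34 and RPL13, like RPL5, RPS3A, RPS6, RPL21, RPL36A and RPS24, were called lower whichever line was left out.

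The other 8 members are not among the 68 called. RPS20 had levels of 2322 (Kasumi-1), 4480 (NOMO-1) and 5332 (THP-1) with both cytokines, against 3481, 4756 and 4433 untreated. It was lower in 2 AML lines and higher in THP-1, with a change of -0.13 ± 0.17 (limma, adjusted p = 0.605). RPL28, in the large subunit, had 2725, 1142 and 2122 with both cytokines and 2820, 1791 and 2022 untreated, a change of -0.21 ± 0.15 (adjusted p = 0.322). With median-of-ratios scaling both changes had the other sign, at 0.12 for RPS20 and 0.05 for RPL28. RPS29, which binds zinc and lacked a tract at its annotated start, had a change of -0.41 ± 0.22 (adjusted p = 0.193). The other members not called were RPL30, RPS15A, RPS27, RPS27A and RPS9, with changes of -0.50, -0.52, -0.46, -0.64 and -0.82 and adjusted p between 0.0517 and 0.228. RPS27A, which is made as a fusion with ubiquitin, had adjusted p = 0.0621 and was not the nearest of these to the threshold.

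**Figure D4:**
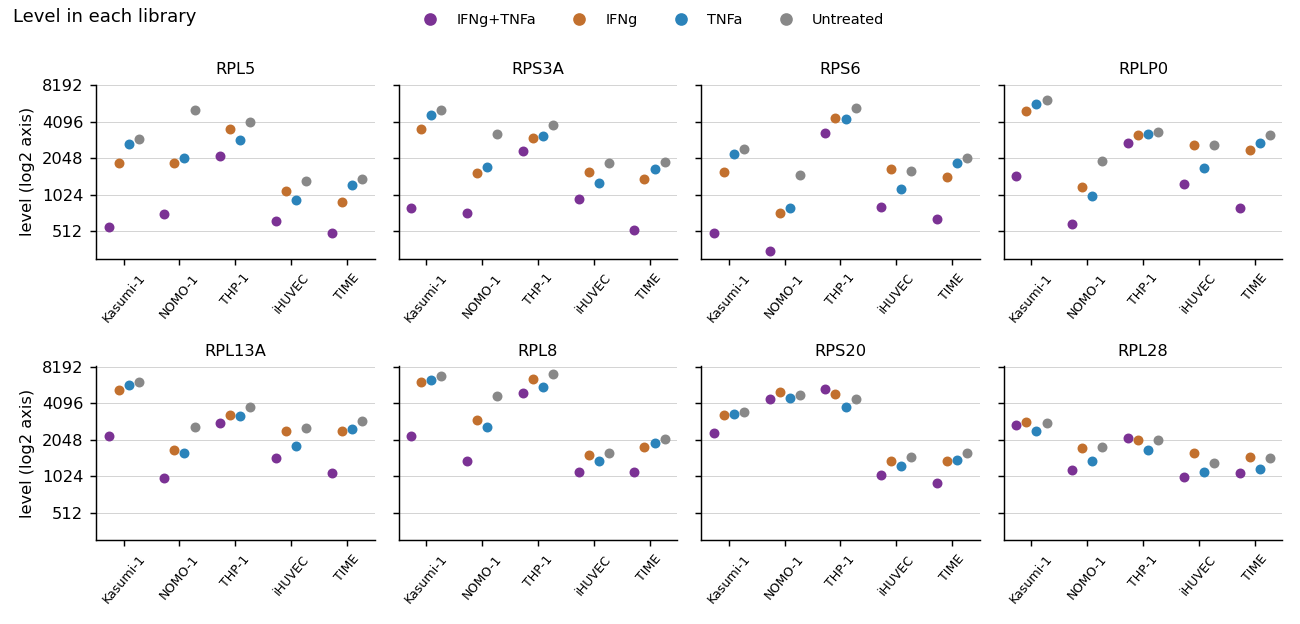
Levels of 8 members are plotted on a log2 axis, with 1 point per library, for 5 lines and 4 treatments. In RPL5, RPS3A, RPS6, RPLP0, RPL13A and RPL8 the IFNg+TNFa point is the lowest of each line, while in RPS20 that of THP-1 is the highest of its line at 5332.

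In endothelial lines, 17 of 76 members (22.4%) fell with both cytokines and none rose. Of all genes tested, 10.2% fell and 3.81% rose. The median log2 change was -0.73 for members and -0.22 for all genes, and every member's change was negative, from -1.55 to -0.23. The fallen members were 10 of the large subunit, 1 of the stalk and 6 of the small subunit. This count is less firm than that in AML lines: it was 0 without iHUVEC and 0 without TIME, when a single endothelial line is left and its spread is taken from the AML lines, 9 without NOMO-1, 36 without Kasumi-1 and 0 with median-of-ratios scaling, where the member median was -0.37. Of all genes, 16.1% were lower without NOMO-1, a larger share than that of members, 13.7% without Kasumi-1 and 4.08% with median-of-ratios scaling. Fitted without the AML libraries, 50 members were called lower and 27.5% of all genes. At an unadjusted p under 0.05, 56 members were lower and none higher, against 22.6% and 7.06% of all genes.

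RPLP0, the base of the stalk, had the largest change in endothelial lines. Its level was 1246 in iHUVEC and 792 in TIME with both cytokines, against 2626 and 3209 untreated, a change of -1.55 ± 0.41 (limma, adjusted p = 0.0254). It was 1466 (Kasumi-1), 587 (NOMO-1) and 2744 (THP-1) with both cytokines, against 6222, 1959 and 3365 untreated (-1.37 ± 0.33, adjusted p = 0.00886), a call lost without Kasumi-1 (-1.01, adjusted p = 0.0589) and without NOMO-1 (-1.19, adjusted p = 0.0788). The other stalk proteins, RPLP1 and RPLP2, fell in AML lines by -1.15 ± 0.23 and -1.20 ± 0.25 (adjusted p = 0.00318 and 0.00422), RPLP2 not without NOMO-1 (-0.77, adjusted p = 0.0575). In endothelial lines their changes were -0.64 ± 0.28 and -0.44 ± 0.31 (adjusted p = 0.147 and 0.387).

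RPL13A had the smallest adjusted p of the family in endothelial lines. Its level was 1438 in iHUVEC and 1098 in TIME with both cytokines, against 2554 and 2947 untreated, a change of -1.13 ± 0.28 (limma, adjusted p = 0.0203). In AML lines it was 2188 (Kasumi-1), 982 (NOMO-1) and 2798 (THP-1) with both cytokines, against 6095, 2622 and 3842 untreated, a change of -1.12 ± 0.23 (adjusted p = 0.00378). Each of the 5 lines was thus lower, and the changes of both cell types lay within one error of each other. Of the 5 other GAIT genes examined, none was called in AML lines by limma, with 2 lower at an unadjusted p under 0.05, and 1 was in endothelial lines: SYNCRIP, an RNA-binding protein, fell by 0.71 ± 0.22 on the log2 scale (adjusted p = 0.0446).

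Other endothelial calls with small p-values were RPL14, RPL41, RPS6, RPS15, RPS7, RPL18 and RPL23, with log2 changes from -1.34 for RPS6 to -0.60 for RPS15 and adjusted p from 0.0223 to 0.0375. Most of the RPL14 signal was assigned to retained-intron transcripts, with 94.6% in iHUVEC and 92.0% in TIME. RPS6 had 808 in iHUVEC and 645 in TIME with both cytokines, against 1619 and 2053 untreated (-1.34 ± 0.37, adjusted p = 0.0323). RPS3A had 945 and 524 with both cytokines and 1868 and 1909 untreated (-1.42 ± 0.43, adjusted p = 0.0431). RPL5 had 629 and 497 with both cytokines and 1341 and 1386 untreated (-1.29 ± 0.39, adjusted p = 0.047). The smallest changes were those of RPS16 at -0.23, RPL38 at -0.28 and RPL37 at -0.30, with adjusted p between 0.434 and 0.553. With median-of-ratios scaling these 3 and RPS19 had small positive values, from 0.03 to 0.13.

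All 17 members called in endothelial lines were also called in AML lines, that is, 100% of the endothelial and 25% of the AML calls. With 89.5% of all members called in AML lines, most of any 17 members would be shared. The overlap thus does not show that the cell types lowered the same members. Of the 10 members with the lowest log2 change in each cell type, 4 were shared: RPL5, RPLP0, RPS3A and RPS6. Across the 76 members, the fitted changes of the 2 cell types correlated at r = 0.58, as a description over genes. The difference between the responses was tested itself, and no member was called, against 2.57% of all genes. None of the 76 had an unadjusted p under 0.05 for it, against 16.9% of all genes. The member with the smallest adjusted p was RPS16, at 0.338. The largest differences, AML minus endothelial, were -0.85 ± 0.62 for RPL9, -0.78 ± 0.51 for RPL5 and -0.76 ± 0.40 for RPLP2 on one side and 0.52 ± 0.27 for RPS20, 0.31 ± 0.34 for RPS15A and 0.25 ± 0.35 for RPL30 on the other, with adjusted p from 0.361 to 0.768. 

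**Figure D5:**
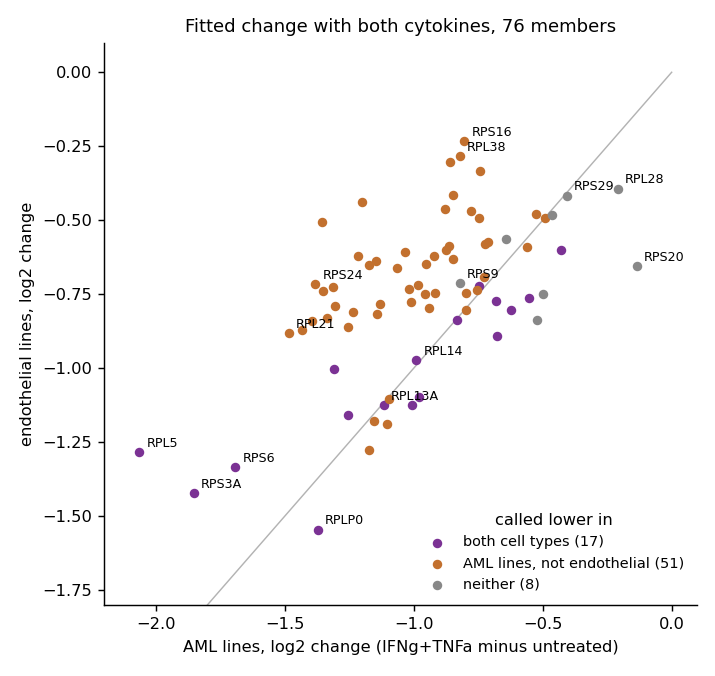
Each point is 1 of 76 members, with its fitted log2 change with both cytokines in AML lines on the x axis and in endothelial lines on the y axis. The grey line marks equal changes and colours show where a member was called lower. RPL5, RPS3A, RPS6 and RPLP0 form the lower left, and RPS20 and RPL28 lie nearest to 0 on the x axis.

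Single cytokines gave smaller differences. With IFNg in AML lines no member was called by limma, against 0.828% of all genes. At an unadjusted p under 0.05, 1 member was lower, against 6.66% of all genes. This was RPL5, with levels of 1882 (Kasumi-1), 1863 (NOMO-1) and 3550 (THP-1) with IFNg and 2977, 5117 and 4119 untreated (-0.78 ± 0.32, adjusted p = 0.351). The next lowest changes were -0.65 for RPS3A and -0.64 for RPS6, and the highest 0.17 for RPS29, 0.15 for RPS26 and 0.12 for RPS21. With TNFa in AML lines no member was called, against 0.282% of all genes. At an unadjusted p under 0.05, 2 members were lower, against 4.57% of all genes. The lowest changes were those of RPS9 at -1.01 ± 0.49, RPL5 at -0.65 ± 0.32 and RPS14 at -0.49 ± 0.28 (adjusted p from 0.544 to 0.61), and the highest was 0.01 for RPL41. The RPS9 value was lowest in Kasumi-1, where the level was 148 with TNFa and 689 untreated. The median change of the family was -0.24 with IFNg and -0.25 with TNFa, against -0.07 and -0.02 for all genes.

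In endothelial lines no member was called with IFNg, against 0.376% of all genes, or with TNFa, against 0.734%. No member had an unadjusted p under 0.05 in either comparison, against 4.58% and 6.06% of all genes. The family medians were -0.20 with IFNg and -0.20 with TNFa. With IFNg the lowest changes were -0.55 for RPL22, -0.55 for RPL23 and -0.52 for RPL31, and the highest 0.15 for RPS15 and 0.14 for RPL28. With TNFa they were -0.42 for RPS2, -0.42 for RPLP0 and -0.37 for RPS3A, and 0.11 for RPS9 and 0.07 for RPL38. The differences of single-cytokine responses between AML and endothelial lines gave no call among members, against 0.00627% of all genes for IFNg and 0.157% for TNFa. They gave no unadjusted p under 0.05 among members, against 3.91% and 4.81% of all genes. No alternative setting or left-out line gave a call for a member in any single-cytokine comparison.

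In Kasumi-1 and TIME the combined treatment went beyond the sum of the single ones. The median of the change with both cytokines minus the sum of the changes with each was -1.17 log2 units in Kasumi-1, where 74 of 76 members lay below the sum, and -0.63 in TIME, where 76 did. It was -0.17 in NOMO-1 with 61 below, -0.12 in iHUVEC with 49 below and -0.10 in THP-1 with 55 below. The changes of a line share its untreated library, and each value is 1 library, so these are descriptions with no test.

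Members with roles in disease or outside the ribosome were followed through the combined treatment in AML lines. RPL11, the MDM2-binding partner of RPL5, fell by 0.73 ± 0.20 on the log2 scale (limma, adjusted p = 0.0157), not called without Kasumi-1 (-0.48, adjusted p = 0.109) or NOMO-1 (-0.79, adjusted p = 0.0556). RPS3 fell by 1.40 ± 0.29 (adjusted p = 0.00426; without NOMO-1 -1.22, adjusted p = 0.0512). RPS14, the gene tied to the anemia of the 5q deletion syndrome, fell by 1.22 ± 0.28 (adjusted p = 0.00623; without NOMO-1 -1.05, adjusted p = 0.0647), and RPS19, the most often mutated gene of Diamond-Blackfan anemia, by 0.75 ± 0.17 (adjusted p = 0.00684; without NOMO-1 -0.58, adjusted p = 0.0873). RPS4X, which lies on the X chromosome, fell by 1.35 ± 0.29 (adjusted p = 0.00517; without NOMO-1 -1.14, adjusted p = 0.0572).

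RPL22 and RPL10 are altered in some leukemias. RPL22 had levels of 486 (Kasumi-1), 192 (NOMO-1) and 890 (THP-1) with both cytokines and 1656, 355 and 1526 untreated, and fell by 1.14 ± 0.23 (limma, adjusted p = 0.00379) whichever line was left out. RPL10 fell by 0.53 ± 0.18 (adjusted p = 0.0487), a call that leaving out any of the 5 lines ended, with changes from -0.70 to -0.28 and adjusted p from 0.062 to 0.27. RPSA, also known as the laminin receptor, fell by 1.01 ± 0.33 (adjusted p = 0.0375). Its level in Kasumi-1 was 770 with both cytokines and 3374 untreated, while THP-1 had 1499 and 1340, and without Kasumi-1 its change was -0.45 (adjusted p = 0.264). The calls of RPS19, RPL11, RPL10 and RPSA were also lost with median-of-ratios scaling. In endothelial lines none of RPL11, RPS3, RPS14, RPS19, RPS4X, RPL22, RPL10, RPSA and RPS27A was called, with changes from -0.84 to -0.34 and adjusted p from 0.0771 to 0.323. When Kasumi-1 was left out of the fit, RPL11 (adjusted p = 0.0436) and RPL22 (adjusted p = 0.0374) were called lower there.

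AML and endothelial lines were then compared directly. In untreated cells the median log2 difference of members, AML minus endothelial, was 0.46, and that of all 13542 genes tested was -0.38. No member was called by limma, against 7.61% of all genes. At an unadjusted p under 0.05, 5 members were higher in AML lines and none lower, against 5.2% and 17.4% of all genes. The count of higher members is thus near the share of all genes. Over line means of all 4 treatments no member was called, against 6.39% of all genes. At an unadjusted p under 0.05, 2 members were higher and none lower, against 4.57% and 15.1% of all genes. The direction of the family depended on scaling: on TPM as deposited the untreated median was -0.17 against -0.88 for all genes, and with median-of-ratios scaling 0.81 against -0.07. Relative to all genes the family lay 0.83, 0.71 and 0.88 log2 units higher in AML lines with rescaled TPM, deposited TPM and median-of-ratios scaling.

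The largest untreated differences were those of RPL8, RPL21 and RPLP2. RPL8 had levels of 6854 (Kasumi-1), 4745 (NOMO-1) and 7093 (THP-1), against 1606 in iHUVEC and 2071 in TIME, a difference of 1.75 ± 0.54 (limma, adjusted p = 0.118). RPLP2 had 12501, 7748 and 9443 in the same AML lines, against 3269 and 3283 in endothelial lines (1.57 ± 0.56, adjusted p = 0.168). In both genes every AML line lay above both endothelial lines. For RPL8 this counts all transcripts of the gene. Over the 4 libraries of a line, RPL8-208, a processed transcript, held 69.9% of it in NOMO-1, 10.3% in iHUVEC and 11.9% in TIME. Its part in the NOMO-1 level was not tested. RPL21 had 1383, 7806 and 2495 in AML lines and 828 and 1001 in endothelial lines, also without overlap (1.72 ± 0.81, adjusted p = 0.279). The share of all genes without overlap is not given, so this separation does not set these members apart. Without NOMO-1, 3 members were called higher in AML lines: RPL8 at 1.93 (adjusted p = 0.0291), RPLP2 at 1.73 (adjusted p = 0.0438) and RPS27 at 1.51 (adjusted p = 0.0492). Of all genes, 1.99% were called higher and 8.24% lower in that fit. The same 3 were called over line means without NOMO-1. The lowest differences were -0.69 ± 0.80 for RPL10, -0.42 ± 0.73 for RPL15 and -0.39 ± 0.65 for RPS15A.

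The transcripts that made up the members differed between NOMO-1 and the other lines. In NOMO-1, 79.5 to 87.8% of the members' transcript TPM lay on transcripts annotated as protein-coding in GENCODE v29, against 91.2 to 92.6% in the other lines. Retained-intron transcripts held 6.6 to 9.2% in NOMO-1 and 4.9 to 5.8% elsewhere. Some members lay mostly on such transcripts in every line, with 92.0 to 94.9% of RPL14 and 73.4 to 89.4% of RPS28. With non-coding transcripts left out, least remained of RPL14 (5.22%), RPS28 (22.2%), RPL37 (24.2%), RPL11 (40.4%), RPL4 (55.2%) and RPL13 (57.4%). The share of each gene held by each transcript was tested for 76 transcripts of 37 members, RPS27 left out. None was called between AML and endothelial lines or between both cytokines and untreated cells, and none of the 76 had an unadjusted p under 0.05. Of all 11949 transcripts tested, 0.0% were called in each comparison by limma, with 6.14% and 8.3% at an unadjusted p under 0.05.

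Single transcripts spread widely over lines all the same. The range of line means exceeded 30 percentage points for 27 of the 76 transcripts, and NOMO-1 was at one end of it in 25. RPL4-209, a processed transcript, held 54.5% of RPL4 in NOMO-1, 16.6% in THP-1, 1.02% in Kasumi-1 and under 0.3% in both endothelial lines. RPS3A-208 held 47.7% of RPS3A in NOMO-1 and 0.663 to 1.5% elsewhere. RPS24 has transcripts with different 3′ ends. RPS24-214 held 53.5% of the gene in THP-1, 29.7% in Kasumi-1, 24.3% in iHUVEC, 21.2% in TIME and 16.3% in NOMO-1, and RPS24-202 held 43.9 to 75.7%. For RPS27, 0.72% of the gene's TPM lay on transcripts matched to GENCODE v29, so its shares are neither given nor counted.

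Related genes outside the family were examined beside it. FAU encodes the ribosomal protein RPS30 as a fusion with a ubiquitin-like protein. Its change was -0.36 ± 0.16 in AML lines (limma, adjusted p = 0.122) and -0.37 ± 0.20 in endothelial lines (adjusted p = 0.242). Of 8 paralogs, 6 were tested. RPS27L, a target of p53, RPL7L1 and RPL39L fell in AML lines (-1.05, -0.50 and -0.70, adjusted p from 0.0183 to 0.048, with 0 of them called without NOMO-1 and 1 paralog without Kasumi-1), and RPL7L1 in endothelial lines (-0.68, adjusted p = 0.0483). RPL22L1, RPL26L1 and RPL36AL did not pass in either cell type.

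Genes that serve ribosome production were lower in part. Of 19 translation factors and other TOP mRNAs, 11 fell in AML lines and 6 in endothelial lines with both cytokines, and none rose, against the 20% and 10.2% of all genes that fell. EEF1G, a subunit of elongation factor 1, fell in AML lines by 1.39 ± 0.28 (limma, adjusted p = 0.00314), and EIF4B, an initiation factor, fell in endothelial lines by 1.60 ± 0.34 (adjusted p = 0.00956). Of 46 ribosome biogenesis genes, 19 fell in AML lines, NOP56 among them by 1.77 ± 0.36 (adjusted p = 0.00386), and 0 were called in endothelial lines, where 20 were lower and 0 higher at an unadjusted p under 0.05. In AML lines their median change was -1.78 (Kasumi-1), -1.11 (NOMO-1) and 0.13 (THP-1), and the count in AML lines was 35 without THP-1, 6 without either endothelial line, 3 when Kasumi-1 and 2 when NOMO-1 was left out. The counts without Kasumi-1 and without NOMO-1 are smaller shares than those of all genes lower in the same fits. For the translation factors the AML count was 7 without Kasumi-1, 7 without NOMO-1 and 5 with median-of-ratios scaling. RNA polymerase I, which makes ribosomal RNA, and its factors gave 4 of 14 in AML lines and 2 of 14 in endothelial lines, with UBTF lower in both (-0.81 ± 0.17, adjusted p = 0.0043, and -0.72 ± 0.21, adjusted p = 0.0375).

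Of 9 proteins that carry or fold ribosomal proteins, 2 fell and 1 rose in AML lines, shares near the 20% and 9.65% of all genes. The gene that rose was KPNB1, an import receptor, by 0.92 ± 0.20 (limma, adjusted p = 0.00583). In endothelial lines NACA, of the nascent chain complex, fell by 0.87 ± 0.23 (adjusted p = 0.0282). Among 17 regulators of TOP mRNA translation, 5 fell in AML lines and 6 in endothelial lines, against 20% and 10.2% of all genes. With median-of-ratios scaling 1 was lower and 3 were higher in AML lines, and without Kasumi-1 or without NOMO-1 1 was lower. MTOR fell in AML lines by 0.69 ± 0.21 (adjusted p = 0.0248), and its partner MLST8 fell there by 0.61 ± 0.18 (adjusted p = 0.0214) and in endothelial lines by 1.00 ± 0.22 (adjusted p = 0.0104).

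The ribosome of mitochondria is made of other proteins, encoded by 78 genes of which 77 were tested. With both cytokines in AML lines 27 of these fell and 2 rose, and in endothelial lines 11 fell and none rose. Of all genes, 20% fell and 9.65% rose in AML lines and 10.2% fell in endothelial lines, so the endothelial count is near that of all genes. The medians of their log2 changes were -0.45 in AML and -0.57 in endothelial lines, against -0.95 and -0.73 for the cytoplasmic family. The ratio of the summed level of the cytoplasmic to that of the mitochondrial family was 39.0 in Kasumi-1 with both cytokines and 61.2 untreated, 13.3 and 20.02 in NOMO-1, 29.7 and 33.5 in THP-1, 23.3 and 22.5 in iHUVEC and 22.0 and 27.6 in TIME. In iHUVEC the ratio was higher with both cytokines than untreated, and in the other 4 lines it was lower. The AML count of mitochondrial proteins was 11 lower and 1 higher without Kasumi-1, 18 lower without NOMO-1, 16 lower without either endothelial line, and 12 lower and 10 higher with median-of-ratios scaling. The endothelial count was 28 lower without Kasumi-1. Without iHUVEC, without TIME or with median-of-ratios scaling, no gene of these lists of related genes was called lower in endothelial lines.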

How the data were processed

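RNA was isolated with QIAGEN columns and sequenced with Illumina chemistry, per the labels' protocols. The submitters' processing notes name Salmon 1.2.0, DESeq2 1.28.1 and the genome GRCh38.p13 without saying what each did. The authors deposited TPM values for 35168 genes and 170068 transcripts, so depth is unknown and no counting error could be given. Columns whose names hold x2 were taken to be IFNg+TNFa, since no other treatment lacked a column.

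TPM were rescaled to a common sum after removal of 13 MT- genes and analysed as log2(value + 1), a scale that understates changes of low genes, with limma 3.58.1 in R 4.3.3 and a trend on mean expression. Genes with at least 1 in at least 2 libraries of a fit were tested. Errors after ± are moderated standard errors unless marked SD. The line was a term of the treatment fit, which left 9 residual degrees of freedom, since the labels give 1 library of each line per treatment. Deviations from the group means correlated at 0.66 to 0.89 within lines (30 pairs). No pair of libraries was identical. Cell types share no line and were compared over 3 against 2 lines. The percent of each gene's TPM per transcript was computed from the deposited TPM of transcripts matched to GENCODE v29 (167008), for genes averaging 5 TPM or more and mean shares of 10 to 90%. Gene symbols were found for 35051 IDs. Promoter windows are from RefSeq.

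The members and lists were chosen with earlier results of these data known. Named members were, per comparison, up to 10 called members a direction by adjusted p and the 3 largest changes each way, the 3 highest, lowest, most and least variable members, and members with roles outside the ribosome. A few items that this rule names are not reported here. Alternatives covered scaling, pseudocount (0.1), filters (none, or 5), variance trend, the line term, separate fits and leaving out each line. Adding pseudogene copies, removing MTRNR2L genes and leaving out non-coding transcripts were chosen after seeing the data. The code was tested on simulated data. Tables and figures used Python 3.11.15, pandas 2.3.3 and matplotlib 3.10.9.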

Additional observations from a re-analysis of the deposited data

How the results depend on the processing

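With both cytokines in AML lines, 68 members (89.5%) were called lower, against 20% of all genes. Median-of-ratios scaling gave 30, leaving out the line term (no replicate block) gave 1, and leaving out each line in turn gave 29 to 64. The other settings tried gave 54 to 69. In endothelial lines 17 members (22.4%) were called lower, against 10.2% of all genes. TPM as deposited gave 6, median-of-ratios scaling 0, a pseudocount of 0.1 11, no filter on low values 1, no variance trend 8, no replicate block 0 and the endothelial libraries alone 50, and leaving out each line in turn gave 0 to 36. The other settings gave 14 to 21. The share of all genes called also changed with the setting, so a member count alone does not set the family apart. No member was called higher under any of these settings.

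Of the comparisons with no member called, only those of AML against endothelial lines gave any under an alternative, with 0 to 3 when each line was left out in turn, both for untreated libraries and for line means. The blocked fit is the one reported, and without the block no member was called in a single-cytokine comparison. The mean difference of the summed share, both cytokines minus untreated, was -12.3 percentage points in AML and -6.68 in endothelial lines, and with MT- genes in the total it was -8.07 and -5.08.

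With 1 library per line and treatment, the spread between cultures of a line was not measured by itself, and endothelial results rest on 2 lines. Values are shares of a library, so no absolute amount can be read from them. Members with many copies depend on how reads were assigned.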
